A study of Mus musculus with 12 samples.

Results

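The genes described here are 39 genes that mark or act on the cells of the blood vessel wall, out of the 27597 genes or gene names on a mouse expression array. They were a fixed list of names, chosen with earlier results of these data known. Their counts against the share of all genes therefore describe this list and are not an independent test. The names were looked up in the scanner files (Aplnr is there as Agtrl1 and Esam as Esam1). The brightest probe stood for each gene. All 39 were on the array and all 39 were among the 15226 genes tested. By role, 25 belong to endothelial cells (8 junction and surface proteins, 7 receptors and 1 phosphatase, 3 secreted proteins and enzymes, 6 transcription factors), 9 to mural cells (4 contractile smooth muscle genes and 5 pericyte genes), and 5 are ligands that act on the endothelium.

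Endothelial cells line every vessel, and in muscle most of them form the capillaries that run between the fibres. They are held together by cadherin and claudin junctions, and they depend on the VEGF receptors and the Tie receptors, whose ligands come largely from the cells around them. Mural cells wrap the endothelium from outside: pericytes on capillaries, contractile smooth muscle cells on arterioles and venules. ETS and SoxF transcription factors set the endothelial expression programme, and Acvrl1 and Eng are the receptor and co-receptor through which BMP ligands reach Smad4 in endothelial cells.

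Total RNA came from whole gastrocnemius, a calf muscle, of adult male CD1 mice, with 3 arrays in each of 4 groups. The groups were Smad4 knockout muscle denervated for 14 days (KO denervated), Smad4 knockout control muscle that kept its nerve (KO control), wild-type muscle denervated for 14 days (WT denervated) and wild-type control muscle (WT control). Smad4 is the Smad protein shared by the BMP and the TGF-beta pathway. The labels do not say how or in which cells Smad4 was deleted, nor whether control muscle was the other leg or another animal's, and they state that the 3 experiments per condition used different animals. In whole muscle, fewer vessel cells and less RNA of a gene per vessel cell cannot be told apart.

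Levels are given as the log2 signal of the probe minus the 75th percentile of its array, so a difference of 1 is a doubling of signal, and a gene was called when its limma adjusted p was under 0.05. Between 50.1% and 56.4% of probes were well above background by array, the 75th percentile lay between 219 and 364 intensity units, and with 3 arrays a group, precision is limited by their number. Smad4 averaged 1.90 ± 0.14 in KO denervated against 3.32 ± 0.16 in WT denervated muscle, and 2.33 ± 0.12 in KO control against 3.79 ± 0.22 in WT control muscle (SD, n = 3 each). The 4 denervation genes Chrna1, Chrng, Myog and Ncam1 rose in both genotypes (for Chrna1, log2 4.36 ± 0.13 in KO and 4.51 ± 0.13 in WT, SE). The vessel markers themselves were measured: 38 of the 39 genes were well above background on all 12 arrays, and Emcn missed only on WT denervated replicate 1. None of the 4 slides carried arrays of all 4 groups, and 1 was scanned on another day than the other 3.

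The stretch just before the start of a gene is shown for endothelial receptor genes that fell together after denervation, because ETS factors such as Erg, Fli1 and Ets1 bind sites with the core GGAA. The 200 bases before the start are given 5′ to 3′ on the gene's strand, from the RefSeq promoter table (build GRCm38.p6), for Eng (chr2:32646395-32646594, plus strand), Flt1 (chr5:147726012-147726211, minus strand), Robo4 (chr9:37401772-37401971, plus strand) and Kdr (chr5:75978456-75978655, minus strand). Capitals mark AGGAAG or its complement CTTCCT, and the first 3 genes were chosen because they hold it.
Eng: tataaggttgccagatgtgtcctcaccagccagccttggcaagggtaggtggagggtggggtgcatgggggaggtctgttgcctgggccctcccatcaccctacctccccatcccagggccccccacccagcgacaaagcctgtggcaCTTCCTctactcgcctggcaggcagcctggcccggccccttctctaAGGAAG
Flt1: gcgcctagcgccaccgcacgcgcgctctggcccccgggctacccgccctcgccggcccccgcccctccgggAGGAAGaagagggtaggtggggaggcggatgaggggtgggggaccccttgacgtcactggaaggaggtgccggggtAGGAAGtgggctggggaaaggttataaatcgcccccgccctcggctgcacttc
Robo4: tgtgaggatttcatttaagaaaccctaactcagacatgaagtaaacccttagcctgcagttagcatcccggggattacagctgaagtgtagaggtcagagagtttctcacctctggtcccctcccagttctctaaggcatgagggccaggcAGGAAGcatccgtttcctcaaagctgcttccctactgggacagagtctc
Kdr: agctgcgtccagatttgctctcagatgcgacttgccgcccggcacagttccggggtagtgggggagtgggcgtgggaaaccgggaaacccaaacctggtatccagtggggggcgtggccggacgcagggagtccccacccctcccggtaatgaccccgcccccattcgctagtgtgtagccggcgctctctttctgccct
Eng and Flt1 held 2 matches each, Robo4 held 1 and Kdr held none. Other copies of the core GGAA, which the Kdr window also holds, were not marked or counted. Of the 19 genes with an entry in the table, 5 held AGGAAG on either strand in this window (26.3%: Flt1, Eng, Emcn, Robo4 and Egfl7), against 24.5% of 27020 promoters of all genes. All 5 were among the 10 endothelial genes with an entry. The hypoxia-type core ACGTG was in 1 of 19 windows (5.26%, Notch3) against 13.9% of all, the Smad-type element CAGAC in 6 of 19 (31.6%: Eng, Cldn5, Robo4, Vegfa, Cspg4 and Notch3) against 35.4%, and the CArG box of smooth muscle genes in 0 of 19 against 1.14%. Both strands were read for each, and in no member window did matches of 2 motifs overlap. A match describes the letters only and is not evidence of a bound site.

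The first comparison, denervated with control muscle, tests how vessel genes stood after 14 days of denervation, once in KO and once in WT muscle. Vessel genes were lower after denervation in both. In KO muscle 26 of the 39 fell and 0 rose, with a median log2 difference of -0.88, where 46.9% of all genes tested were called, 23.7% higher and 23.2% lower. In WT muscle 29 fell and 0 rose, with a median of -0.88, where 39.3% of all genes were called, 18.7% higher and 20.6% lower. The median over all genes was 0.003 in KO and -0.02 in WT muscle. Called lower in both genotypes were 24 of the 39, and 8 (Emcn, Cldn5, Fli1, Tagln, Myh11, Cnn1, Cspg4 and Mcam) were called in neither.

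By cell type, 20 of the 25 endothelial genes fell in each genotype (medians -0.93 in KO and -0.93 in WT), as did 4 of 5 ligands in KO and 5 of 5 in WT (medians -1.32 and -1.11). Of the 9 mural genes, 2 fell in KO and 4 in WT muscle (medians -0.31 and -0.51). Of all genes, 23.2% fell in KO and 20.6% in WT, so the KO mural count is near its share. The 3 KO denervated arrays lay below all 3 KO control arrays for 29 of the 39 genes, where 28.2% of all genes did so (56.7% were apart in either direction), and the WT denervated arrays lay below the WT control arrays for 31, where 27.1% of all genes did (53% in either direction). Read as the mean of the 25 endothelial genes, each centred on its own mean, the KO denervated arrays were between -0.43 and -0.38 and the KO control arrays between 0.45 and 0.60. The WT denervated arrays spread more, from -0.92 to -0.19, and the WT control arrays lay between 0.43 and 0.55. The -0.92 was WT denervated replicate 1, whose mean includes Emcn at -6.52, not well above background there. The 8 receptor and phosphatase genes, without Emcn, averaged -0.57, -0.75 and -0.19 on WT denervated replicates 1, 2 and 3.

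**Figure D1:**
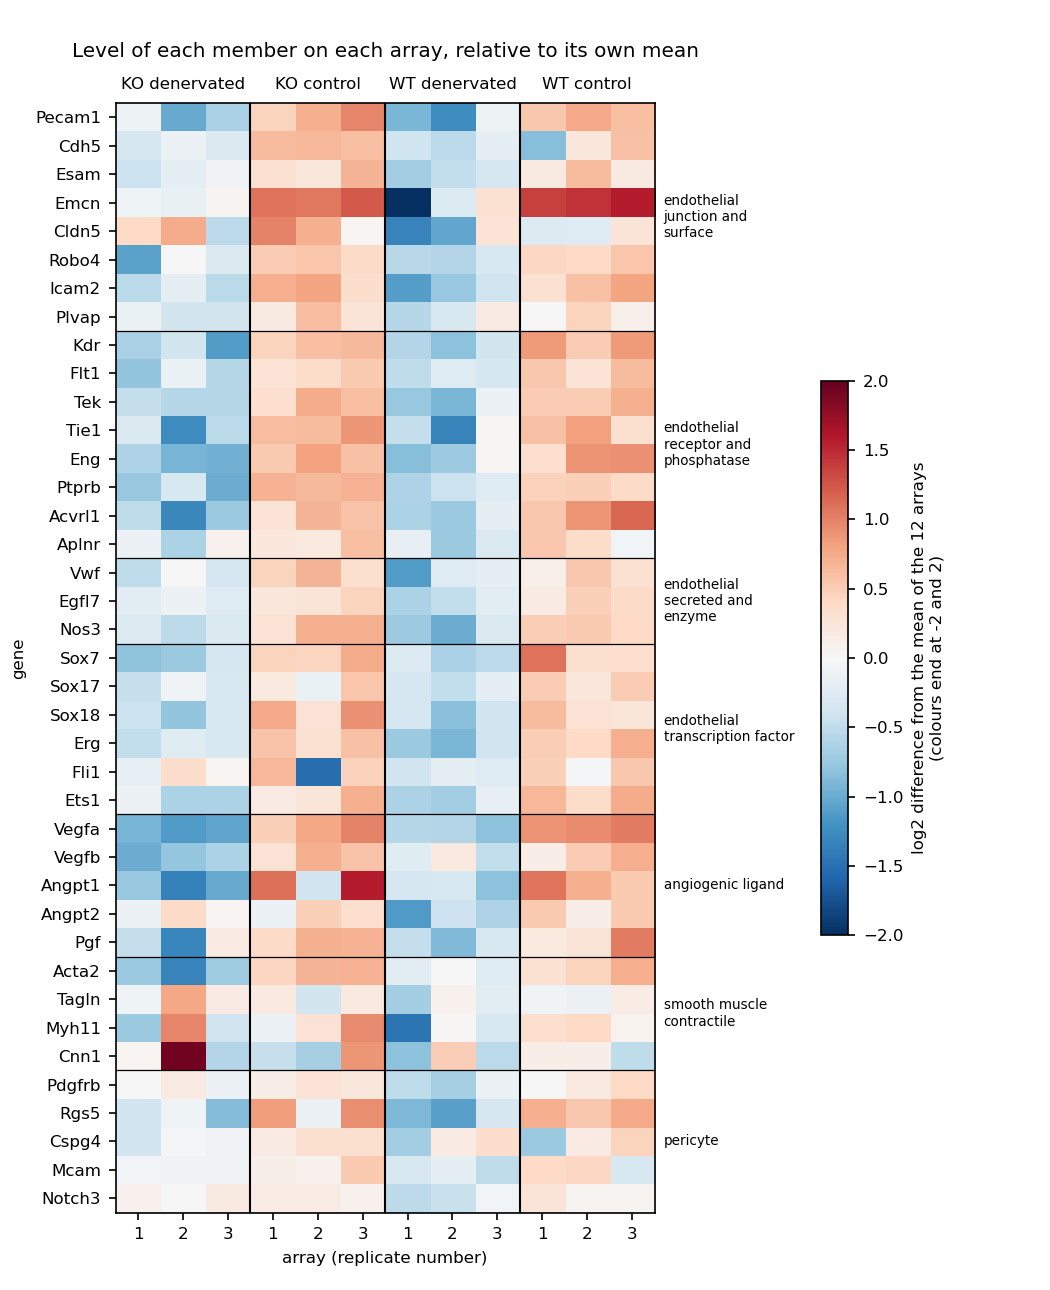
Each row is a gene and each column an array, in the order KO denervated, KO control, WT denervated and WT control. Colour gives the log2 level relative to the gene's own mean over the 12 arrays (blue lower, red higher, colours end at -2 and 2). Most endothelial and ligand rows are blue on denervated and red on control arrays of both genotypes, with exceptions such as Cldn5, Fli1 and Angpt2, and the single darkest cell is Emcn on WT denervated replicate 1 at a level of -6.52.

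Ligands first. Vegfa, the main growth factor of endothelial cells, had the smallest adjusted p of the 39 genes in both genotypes. Its brightest probe (A_52_P638895, chromosome 17, 45481019 to 45481078, minus strand, build mm8) read 1.60, 1.40 and 1.48 on the KO denervated arrays, against 3.01, 3.32 and 3.52 on the KO control arrays. It read 1.96, 1.95 and 1.72 on the WT denervated arrays, against 3.44, 3.48 and 3.56 on the WT control arrays. Every denervated array was more than 1 log2 unit below every control array of its genotype. The difference was -1.79 ± 0.15 in KO (3.45-fold lower, limma adjusted p = 6.29e-06) and -1.61 ± 0.15 in WT muscle (3.06-fold lower, limma adjusted p = 1.52e-05), with SE throughout and n = 3 against 3. Its other 2 probes were also called lower in both genotypes, at -1.63 and -2.05 in KO and at -1.63 and -1.37 in WT.

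Vegfb, a ligand of Flt1 made mainly by tissues of high oxidative metabolism, was at 3.80, 4.01 and 4.16 on the KO denervated arrays against 5.08, 5.50 and 5.35 on the KO control arrays. On the WT denervated arrays it was at 4.54, 4.99 and 4.30, against 4.93, 5.30 and 5.52 on the WT control arrays. The KO groups were apart by almost 1 unit at their nearest arrays, while the WT groups overlapped. It fell by 1.32 ± 0.21 in KO (limma adjusted p = 4.97e-04) and by 0.64 ± 0.21 in WT muscle (limma adjusted p = 0.0343). Leaving out WT denervated replicate 1 or 3, or WT control replicate 2 or 3, ended the WT call (at most 0.122 as adjusted p), as did slide as a fixed block (adjusted p = 0.178). The second Vegfb probe was lower in both, at -1.98 in KO and -1.10 in WT (limma adjusted p = 1.33e-04 and 0.00316).

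Angpt2 encodes the ligand of Tek that endothelial cells release when vessels are remodelled. Its levels were -1.59, -1.10 and -1.44 on the KO denervated arrays, against -1.60, -1.01 and -1.15 on the KO control arrays. They were -2.62, -1.89 and -2.10 on the WT denervated arrays, against -0.97, -1.36 and -0.96 on the WT control arrays. KO denervated and KO control arrays overlapped almost fully, whereas the WT groups were apart. The difference was -0.13 ± 0.23 in KO (limma adjusted p = 0.677) and -1.11 ± 0.23 in WT muscle (limma adjusted p = 0.00303). Angpt1, the ligand from perivascular cells that activates Tek, fell by 1.80 ± 0.41 in KO and by 1.26 ± 0.41 in WT muscle (limma adjusted p = 0.00419 and 0.0312). Pgf, placental growth factor, which binds Flt1, fell by 1.13 ± 0.34 and 1.05 ± 0.34 (limma adjusted p = 0.0175 and 0.0291). These last 3 ligands were dim, and with the normexp background correction none of them was called in either genotype (adjusted p from 0.307 to 0.929 for the calls lost). Without any 1 of several arrays the WT calls of Angpt1 (all WT arrays but control replicate 3, adjusted p up to 0.0951) and Pgf (WT denervated replicates 1 and 2 and WT control replicate 3, up to 0.112) also ended, as did the KO call of Pgf without KO denervated or KO control replicate 2 (up to 0.0639). Slide as a fixed block ended the WT call of Pgf (adjusted p = 0.17).

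Of the 7 endothelial receptors and 1 phosphatase, 7 of 8 fell in KO and 8 of 8 in WT muscle, with medians of -1.31 and -1.17. Kdr, the receptor that carries most VEGF signalling, read 0.44, 0.72 and -0.02 on the KO denervated arrays, against 1.54, 1.68 and 1.73 on the KO control arrays. On the WT denervated arrays it read 0.50, 0.26 and 0.72, against 1.93, 1.60 and 1.94 on the WT control arrays. In both genotypes the highest denervated array stood well below the lowest control array. Kdr fell by 1.27 ± 0.20 in KO (2.41-fold, limma adjusted p = 4.18e-04) and by 1.33 ± 0.20 in WT muscle (2.52-fold, limma adjusted p = 4.17e-04). Flt1, the other VEGF receptor of endothelium, fell by 0.88 ± 0.18 and 0.86 ± 0.18, and all 3 of its measured probes were called lower in both.

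Tek, the angiopoietin receptor, was at -0.66, -0.75 and -0.75 on the KO denervated arrays against 0.15, 0.56 and 0.42 on the KO control arrays. It was at -0.93, -1.10 and -0.30 on the WT denervated arrays against 0.32, 0.32 and 0.53 on the WT control arrays. No denervated array reached a control array. The differences were -1.09 ± 0.20 and -1.17 ± 0.20 (limma adjusted p = 0.00108 in KO and 9.31e-04 in WT), while a second probe, called in neither, lay at -0.38 and -0.50. Tie1, the orphan partner of Tek, fell by 1.41 ± 0.33 in KO and 1.17 ± 0.33 in WT muscle. In WT that call ended without WT denervated replicate 2 or WT control replicate 2 (adjusted p = 0.0575 and 0.0593) and with slide as a block (0.13). Ptprb, the phosphatase that restrains Tek, read 1.80, 2.25 and 1.58 on the KO denervated arrays against 3.26, 3.21 and 3.26 on the KO control arrays. It read 1.94, 2.13 and 2.31 on the WT denervated arrays against 3.03, 3.04 and 2.96 on the WT control arrays. Control arrays of each genotype lay within 0.1 of each other, and all denervated arrays were lower. It fell by 1.37 ± 0.17 in KO (2.58-fold, limma adjusted p = 8.95e-05) and by 0.88 ± 0.17 in WT muscle (1.84-fold, limma adjusted p = 0.00217). Its second probe was not called in KO (-0.71, limma adjusted p = 0.207 over probes) and was called lower in WT (-1.30, 0.0362).

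The receptors of the BMP branch were lower as well. Eng, endoglin, was at 0.22, -0.09 and -0.13 on the KO denervated arrays against 1.35, 1.63 and 1.42 on the KO control arrays. It was at -0.01, 0.10 and 0.86 on the WT denervated arrays against 1.17, 1.73 and 1.74 on the WT control arrays. WT denervated replicate 3 was the one denervated array near the controls. Eng fell by 1.47 ± 0.24 in KO and by 1.23 ± 0.24 in WT muscle (limma adjusted p = 5.32e-04 and 0.00218). Acvrl1, the type I receptor ALK1, read -2.34, -3.11 and -2.57 on the KO denervated arrays against -1.56, -1.14 and -1.25 on the KO control arrays, and -2.45, -2.57 and -2.00 on the WT denervated arrays against -1.29, -0.95 and -0.68 on the WT control arrays. Its groups did not overlap in either genotype, and it fell by 1.36 ± 0.24 and 1.37 ± 0.24 (limma adjusted p = 8.88e-04 and 0.00107). This probe was dim, and both calls ended with the normexp correction (adjusted p = 0.196 and 0.176). Aplnr, the apelin receptor, was at -0.55 ± 0.24 in KO (limma adjusted p = 0.0756) and fell by 0.68 ± 0.24 in WT muscle (0.0407). Slide as a fixed block ended the WT call (adjusted p = 0.202), as did leaving out WT denervated replicate 2 (0.149) or 3 (0.0625), WT control replicate 1 (0.133) or 2 (0.106) or KO control replicate 1 (0.0503), and in KO Aplnr was called without KO denervated replicate 3 (0.0485).

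Among the 8 junction and surface genes, 6 fell in KO and 4 in WT muscle (medians -0.91 and -0.88). Icam2, an adhesion molecule of resting endothelium that leukocytes and platelets also carry, was at 0.39, 0.75 and 0.40 on the KO denervated arrays against 1.65, 1.72 and 1.27 on the KO control arrays. On the WT denervated arrays it was at -0.18, 0.17 and 0.53, against 1.23, 1.51 and 1.72 on the WT control arrays. The groups were apart in both genotypes, and it fell by 1.03 ± 0.21 in KO and by 1.32 ± 0.21 in WT muscle (limma adjusted p = 0.00227 and 6.71e-04). Pecam1, the common endothelial marker CD31, fell by 1.30 ± 0.29 and 1.39 ± 0.29, Robo4, a receptor that stabilises vessels, by 0.93 ± 0.23 in both, and Esam, a tight junction adhesion molecule, by 0.62 ± 0.19 and 0.84 ± 0.19. The WT call of Robo4 ended with the normexp correction (adjusted p = 0.0528). The Esam call in KO ended without KO denervated replicate 1 (adjusted p = 0.062) or KO control replicate 3 (0.0698). It also ended with slide as a fixed block (0.058) and with the normexp correction (0.0516). Plvap, which forms the diaphragms of fenestrated endothelium, fell by 0.65 ± 0.21 in KO (limma adjusted p = 0.0248) and was at -0.42 ± 0.21 in WT muscle (0.131). Its KO call ended without KO denervated replicate 2 or 3 or KO control replicate 2 (adjusted p up to 0.0935), and with slide as a fixed block (0.0913). In WT Plvap was called without WT denervated replicate 3 (0.0317). Cldn5, the main claudin of endothelial tight junctions, had widely spread arrays and was called in neither genotype (-0.38 ± 0.43 and -0.61 ± 0.43), but without WT denervated replicate 3 it was called in WT (adjusted p = 0.0456).

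Emcn, endomucin, a surface protein of capillaries and veins, turned on 1 array in the reported fit. It read 1.01, 0.94 and 1.14 on the KO denervated arrays against 2.17, 2.14 and 2.32 on the KO control arrays, and -6.52, 0.82 and 1.39 on the WT denervated arrays against 2.46, 2.54 and 2.66 on the WT control arrays. All 6 denervated arrays lay below all 6 control arrays, but WT denervated replicate 1, not well above background, was far from the other two. With that array the shared spread was wide and Emcn was called in neither genotype (-1.18 ± 1.53 in KO, limma adjusted p = 0.552, and -3.99 ± 1.53 in WT, 0.0587). Without it, Emcn was called lower in both, at -1.18 in KO and -1.45 in WT (limma adjusted p = 2.62e-04 and 2.47e-04). With a replicate block it was also called in WT (adjusted p = 0.0452), as it was without WT denervated replicate 2 or 3 (0.0346 and 0.0189), where the low array weighs more. With all arrays, Emcn was called in WT under normexp (0.0111) and with slide as a fixed (0.0471) or random block (0.0405). In KO it was called with the 2 groups alone (9.73e-04).

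For Cdh5, the cadherin of endothelial junctions, the 2 probes disagreed on which genotype was called. The brightest (A_52_P248604, chromosome 8, 107033388 to 107033447, plus strand, mm8) read 1.64, 1.86 and 1.69 on the KO denervated arrays against 2.60, 2.65 and 2.59 on the KO control arrays, and 1.58, 1.44 and 1.80 on the WT denervated arrays against 1.12, 2.20 and 2.56 on the WT control arrays. KO groups were well apart, whereas WT control replicate 1 lay below all WT denervated arrays. The difference was -0.88 ± 0.29 in KO (limma adjusted p = 0.0267) and -0.36 ± 0.29 in WT muscle (0.355). The KO call ended without any 1 of KO denervated replicates 1 and 3 and KO control replicates 1, 2 and 3 (adjusted p up to 0.0686). Slide as a fixed block ended it too (0.0831). Without WT control replicate 1 the WT difference was called, at -0.78 (limma adjusted p = 0.00662).

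The second Cdh5 probe (A_51_P309056, 107032728 to 107032787) read -0.08, -0.89 and -0.80 on the KO denervated arrays against 0.84, 1.32 and 1.03 on the KO control arrays, and -4.85, -1.03 and 0.04 on the WT denervated arrays against 0.72, 0.92 and 0.70 on the WT control arrays. All denervated arrays lay below all controls on this probe, and the -4.85 of WT denervated replicate 1 was not well above background. It was at -1.65 in KO (limma adjusted p = 0.157 over probes) and called lower at -2.73 in WT (0.0343). The mean of both probes was called in WT but not in KO (adjusted p = 0.0294 and 0.0546).

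Of the secreted proteins and enzymes, all 3 fell in both genotypes. Nos3, the nitric oxide synthase of endothelium, was at -0.51, -0.77 and -0.53 on the KO denervated arrays against 0.04, 0.47 and 0.47 on the KO control arrays. It was at -0.98, -1.24 and -0.54 on the WT denervated arrays against 0.25, 0.28 and 0.16 on the WT control arrays. Denervated and control arrays did not overlap, and Nos3 fell by 0.93 ± 0.19 in KO and 1.15 ± 0.19 in WT muscle (limma adjusted p = 0.00222 and 8.14e-04). Egfl7, a matrix protein secreted by endothelium, read 2.78, 2.87 and 2.72 on the KO denervated arrays against 3.21, 3.25 and 3.43 on the KO control arrays. It read 2.36, 2.49 and 2.76 on the WT denervated arrays against 3.16, 3.46 and 3.37 on the WT control arrays. The groups were apart but close, and Egfl7 fell by 0.50 ± 0.15 in KO and 0.79 ± 0.15 in WT muscle (limma adjusted p = 0.0149 and 0.00149). Without KO control replicate 3 the KO call ended (adjusted p = 0.0558), as it did with slide as a fixed block (0.0543) and quantile normalization (0.061). Vwf, von Willebrand factor, fell by 0.76 ± 0.25 and 0.84 ± 0.25, and a second probe was also called in both genotypes. On the brightest probe its KO call ended without KO denervated replicate 1 or 3 or KO control replicate 1 or 2 (adjusted p up to 0.0869), and its WT call without WT denervated replicate 1 or WT control replicate 2 or 3 (up to 0.0758).

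Transcription factors followed, 4 of 6 falling in KO and 5 of 6 in WT muscle. Erg, the ETS factor most closely tied to endothelial identity, was at -0.65, -0.39 and -0.45 on the KO denervated arrays against 0.41, 0.15 and 0.43 on the KO control arrays. On the WT denervated arrays it was at -0.89, -1.07 and -0.55, against 0.34, 0.25 and 0.57 on the WT control arrays. Each denervated array was below 0 and each control array above it. Erg fell by 0.83 ± 0.17 in KO and by 1.22 ± 0.17 in WT muscle (limma adjusted p = 0.00196 and 2.16e-04). Sox18, a SoxF factor of arterial and lymphatic specification, read 0.72, 0.36 and 0.83 on the KO denervated arrays against 1.91, 1.45 and 2.06 on the KO control arrays, and 0.82, 0.32 and 0.75 on the WT denervated arrays against 1.78, 1.44 and 1.40 on the WT control arrays. Its groups did not overlap, and it fell by 1.17 ± 0.21 and 0.91 ± 0.21 (limma adjusted p = 0.00101 and 0.00575). Ets1, another ETS factor, fell by 0.83 ± 0.22 and 1.09 ± 0.22, and Sox17, the arterial SoxF factor, was at -0.50 ± 0.19 in KO (limma adjusted p = 0.0503) and fell by 0.75 ± 0.19 in WT muscle (0.0095). One of the 3 Ets1 probes was called in neither genotype (-0.78 in KO and -0.91 in WT, limma adjusted p = 0.0762 and 0.05 over probes). With the normexp correction the KO call of Ets1 (adjusted p = 0.0533) and the WT call of Sox17 (0.0614) ended. A second Sox17 probe was called lower in both (-1.11 and -0.97), and without KO denervated or KO control replicate 2 the brightest was called in KO too (adjusted p = 0.0409 and 0.0168). So it was with all arrays under quantile normalization (0.0383), the array median (0.0401) and the authors' processed values (0.0416). The same held for a filter on all 12 arrays (0.0423) and slide as a fixed (0.0264) or random block (0.0346). The mean of the kept Sox17 probes was also called in KO (0.00445).

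Sox7 and Fli1 had probes that disagreed. On the brightest probe Sox7, the third SoxF factor, read -1.75, -1.69 and -1.28 on the KO denervated arrays against -0.50, -0.52 and -0.20 on the KO control arrays, and -1.21, -1.60 and -1.48 on the WT denervated arrays against 0.14, -0.63 and -0.61 on the WT control arrays. It fell by 1.17 ± 0.23 in KO and 1.06 ± 0.23 in WT muscle (limma adjusted p = 0.00152 and 0.00344). The dimmer probe (A_52_P644005) read -2.73, -2.17 and -1.89 on the KO denervated arrays against -2.82, -3.00 and -2.41 on the KO control arrays, and -2.39, -2.38 and -3.43 on the WT denervated arrays against -1.99, -2.71 and -3.73 on the WT control arrays. It was called in neither (0.48 and 0.08), and the mean of both probes was not called either (adjusted p = 0.369 and 0.219). Fli1, an ETS factor that blood cells also express, was called in neither genotype on its brightest probe (0.20 ± 0.45 and -0.62 ± 0.45), where KO control replicate 2 was low at -1.68. Without that array Fli1 was called lower in WT (limma adjusted p = 0.0256), as it was with slide as a fixed block (0.0191) and with the 2 groups alone (0.0389). Its second probe was at -0.25 in KO and called at -0.69 in WT (limma adjusted p = 0.00817 over probes).

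**Figure D2:**
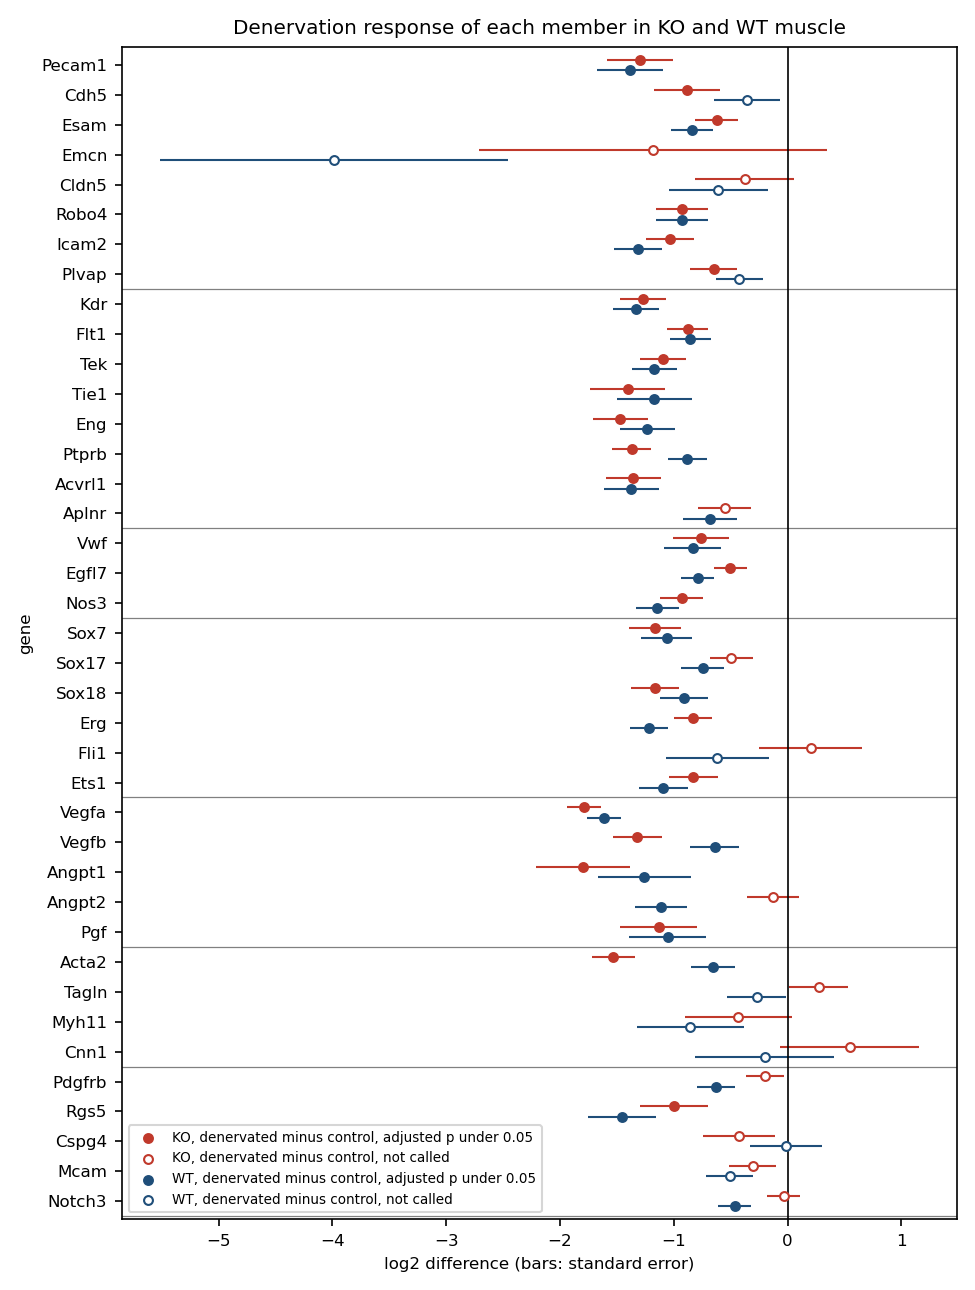
The log2 difference of denervated minus control muscle is plotted for each gene with its standard error, in KO (red) and WT muscle (blue), with filled points for limma adjusted p under 0.05. The genes are in blocks by role, from junction and surface genes at the top to pericyte genes at the bottom. Of the 39 genes, 36 lie left of 0 in KO and 39 in WT, and the points nearest to 0 are mostly mural genes.

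Fewer mural genes were called, in KO muscle near the share of all genes called lower. Of the 5 pericyte genes, Rgs5, a regulator of G-protein signalling typical of pericytes, was at 1.61, 1.91 and 1.13 on the KO denervated arrays against 2.83, 1.88 and 2.92 on the KO control arrays. It was at 1.09, 0.90 and 1.65 on the WT denervated arrays against 2.72, 2.54 and 2.75 on the WT control arrays. KO control replicate 2 lay among the denervated arrays, and the WT groups were apart. Rgs5 fell by 1.00 ± 0.30 in KO and by 1.46 ± 0.30 in WT muscle (limma adjusted p = 0.0178 and 0.00292), and a second probe was called lower in both (-1.37 and -1.43). On the brightest probe the KO call ended without KO control replicate 1 or 3 or KO denervated replicate 3 (adjusted p up to 0.0712).

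Pdgfrb, the PDGF receptor that recruits pericytes, was at -0.20 ± 0.17 in KO (limma adjusted p = 0.355) and fell by 0.63 ± 0.17 in WT muscle (0.0121). Without WT denervated replicate 2 or WT control replicate 3 its WT call ended (adjusted p = 0.0514 and 0.0503), as it did with slide as a fixed block (0.0622). Notch3, the Notch receptor of vascular smooth muscle and pericytes, was at -0.03 ± 0.15 in KO (limma adjusted p = 0.874) and fell by 0.46 ± 0.15 in WT muscle (0.027). That WT call ended without WT denervated replicate 1 or 2 or WT control replicate 1 (adjusted p up to 0.0985). It also ended with a replicate block (0.0642) and with slide as a fixed block (0.0876). Cspg4, the proteoglycan NG2, was at -0.43 ± 0.32 and -0.01 ± 0.32 and called in neither, but was called lower in KO with a replicate block (limma adjusted p = 0.0364) and on its second probe (-0.95, 0.00194 over probes). Mcam, the adhesion molecule CD146 of pericytes and endothelium, was at -0.31 ± 0.21 and -0.51 ± 0.21. Its second probe was called lower in KO (-1.24, limma adjusted p = 0.0125 over probes), and the brightest was called in WT without WT control replicate 3 (adjusted p = 0.00779).

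Among the 4 contractile genes of smooth muscle, 3 were called in neither genotype. Tagln, transgelin, an early marker of the smooth muscle lineage, was at 0.27 ± 0.26 in KO and -0.27 ± 0.26 in WT muscle, Myh11, smooth muscle myosin heavy chain, at -0.43 ± 0.47 and -0.86 ± 0.47, and Cnn1, calponin, at 0.55 ± 0.61 and -0.20 ± 0.61. Arrays of a group were far apart for Cnn1: KO denervated arrays read -0.32, 1.56 and -0.94, against -0.83, -1.03 and 0.51 in KO controls. On KO denervated replicate 2 Tagln (4.04), Myh11 (0.80) and Cnn1 all had their highest value of the 12 arrays. With slide as a fixed block Tagln was called lower in WT muscle (-0.61, limma adjusted p = 0.0464).

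**Figure D3:**
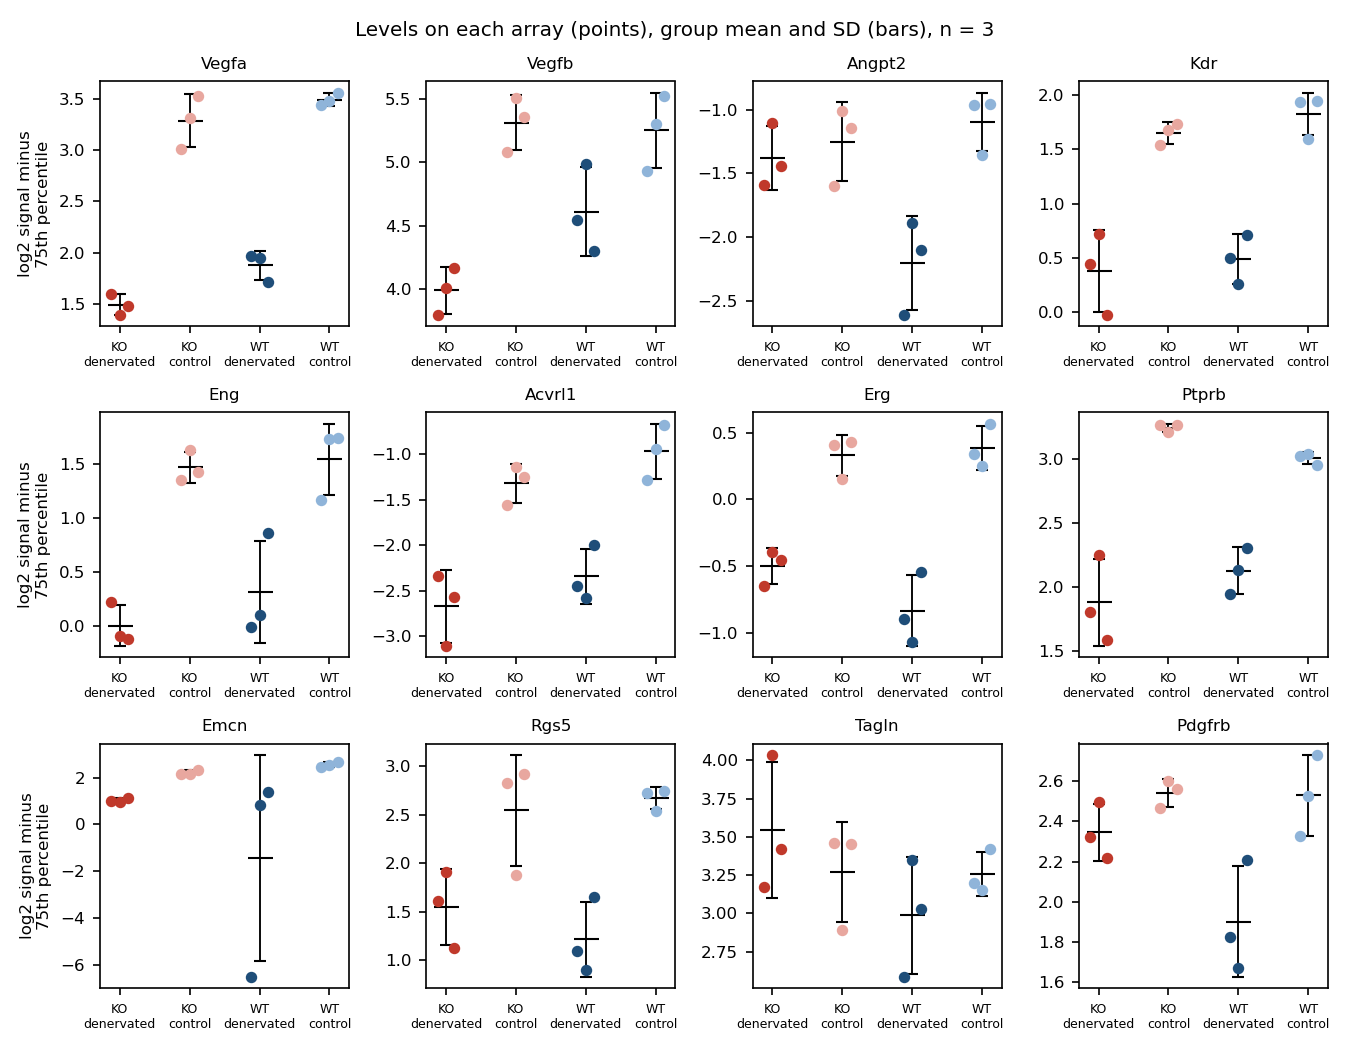
Levels of 12 genes on each array (points) with the group mean and SD (bars), n = 3, in the order KO denervated, KO control, WT denervated and WT control. Vegfa, Kdr, Eng, Acvrl1, Erg and Ptprb were lower on all denervated than on all control arrays of each genotype, Angpt2 overlapped in KO and was apart in WT muscle, Emcn shows the single array at -6.52, and Tagln overlapped in KO muscle.

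Acta2, smooth muscle alpha actin, was the contractile gene that was called, and its probes disagreed. The brightest (A_51_P450957, chromosome 19, 34314502 to 34317756, minus strand, mm8) read 6.74, 6.15 and 6.78 on the KO denervated arrays against 7.92, 8.16 and 8.19 on the KO control arrays, and 7.26, 7.49 and 7.22 on the WT denervated arrays against 7.80, 7.93 and 8.21 on the WT control arrays. Its groups were apart in both genotypes, and it fell by 1.53 ± 0.19 in KO (2.89-fold, limma adjusted p = 8.56e-05) and by 0.65 ± 0.19 in WT muscle (1.57-fold, 0.0191). The other 3 measured probes were called in neither: they were at 0.47, 0.29 and 0.01 in KO and at -0.23, -0.37 and -0.57 in WT muscle. Of these, the probe A_52_P420504 read 2.80, 3.51 and 2.75 on the KO denervated arrays against 2.67, 2.99 and 3.36 on the KO control arrays, which overlapped.

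With the mean of all Acta2 probes both calls ended (limma adjusted p = 0.586 in KO and 0.204 in WT). The WT call also ended under quantile normalization (adjusted p = 0.225), with slide as a block (0.154), and without WT denervated replicate 1 or 3 or WT control replicate 3 (up to 0.0738). Acta1, the closely related skeletal muscle actin that fibres hold in bulk, was at -0.83 ± 0.29 in KO (limma adjusted p = 0.0367) and -0.61 ± 0.29 in WT muscle (0.121). In WT it was called without WT denervated replicate 2 (0.0423). The KO call of Acta1 ended without any 1 of the 6 KO arrays (adjusted p up to 0.0914), and at 0.843 it was far from a call under quantile normalization. Whether the brightest Acta2 probe reads RNA of other actin genes was not tested.

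**Figure D4:**
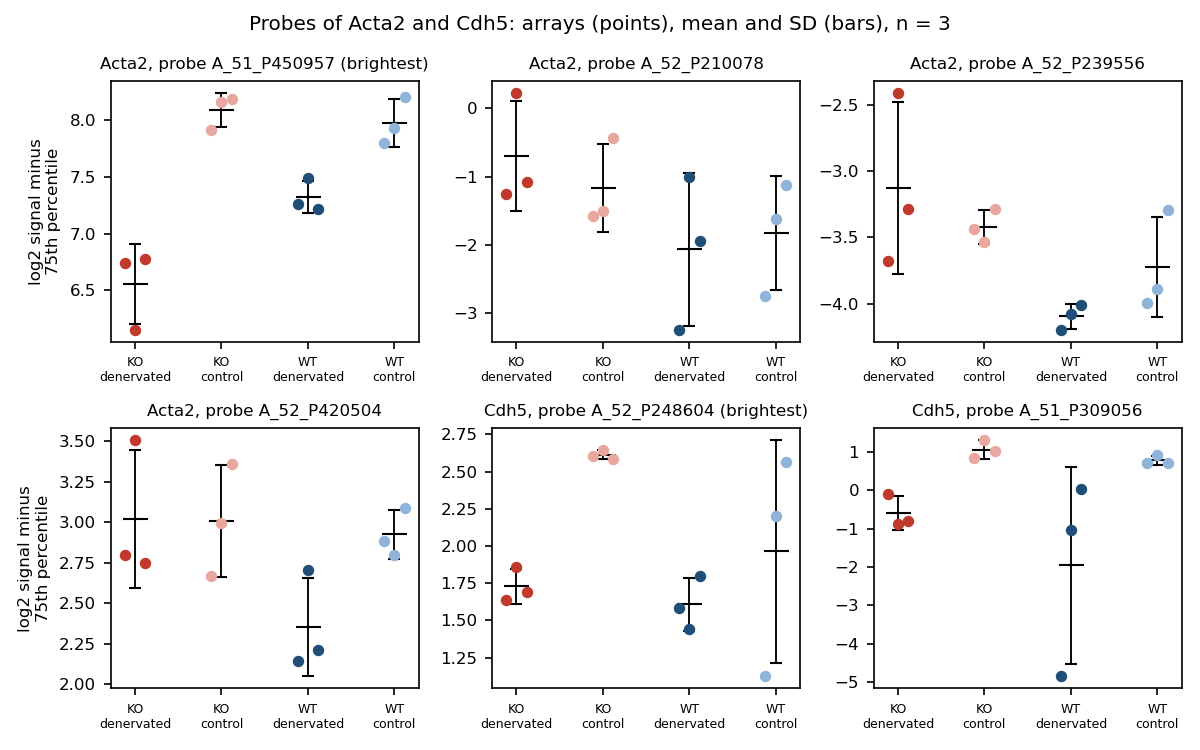
Levels of the 4 measured Acta2 probes and the 2 Cdh5 probes on each array (points), with group mean and SD (bars), n = 3, in the order KO denervated, KO control, WT denervated and WT control. On the brightest Acta2 probe every denervated array is below every control array of its genotype, while the other Acta2 probes overlap in KO muscle. The Cdh5 panels show WT control replicate 1 at 1.12 on one probe and WT denervated replicate 1 at -4.85 on the other.

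Over all 16 genes with at least 2 measured probes, the probes differed in sign for 4 genes in KO (Acta2, Sox7, Fli1 and Tagln) and for 1 in WT muscle (Sox7), and they differed in call for 9 and 6. Within slides, which hold too few arrays for a test, the median of the 39 genes was -1.004 on slide 3 (KO replicates 3) and -0.80 on slide 4 (KO denervated replicate 2 against KO control replicate 1), and -1.06 on slide 1 (WT replicates 1). Every called gene kept its sign there (26 of 26, 26 of 26 and 29 of 29).

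The second comparison, KO with WT muscle, asks whether loss of Smad4 shifted vessel genes. In denervated muscle 0 of the 39 genes were called by limma (2.19% of all genes were, 0.959% higher and 1.23% lower), 6 had an unadjusted p under 0.05, and the median difference was 0.12. Angpt2 was higher in the KO on all 3 arrays (0.83 ± 0.23, limma adjusted p = 0.099), as were Pdgfrb (0.44 ± 0.17, 0.219) and Notch3 (0.44 ± 0.15, 0.165). Vegfa (-0.38 ± 0.15, limma adjusted p = 0.242), Vegfb (-0.62 ± 0.21, 0.182) and Acta2 (-0.77 ± 0.19, 0.0687) were lower in the KO on all 3 arrays. Acta2 was called lower with slide as a fixed block, with slide as a random block and with the array median for scaling (adjusted p = 0.0465, 0.0392 and 0.0385), but its other 3 measured probes had the opposite sign (1.36, 0.97 and 0.67). The arrays of the genotypes did not overlap for 5 genes higher and 3 lower in the KO, where 10.2% and 11.5% of all genes did so (21.7% in either direction). For 29 of the 39 genes the 95% interval of the difference lay within 1 log2 unit of 0, for Kdr for example between -0.55 and 0.33. Within slides the median difference of the 39 genes was 0.27 on slide 1 and 0.18 on slide 4.

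In control muscle 0 of the 39 genes were called by limma (0.00657% of all genes, a single one), 1 had an unadjusted p under 0.05 (Cdh5, 0.65 ± 0.29, limma adjusted p = 1), and the median difference was 0.01 (0.009 within slide 2 and 0.013 within slide 3). The 95% interval lay within 1 log2 unit of 0 for 32 genes. It reached beyond that for Cdh5, Emcn, Cldn5, Fli1, Myh11, Cnn1 and Cspg4. The arrays of the genotypes did not overlap for 2 genes higher (Cdh5 and Ptprb) and 1 lower in the KO (Emcn), where 3.71% and 4.84% of all genes did so (8.55% in either direction).

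The third comparison asks whether the response to denervation itself differed between the genotypes, as the KO response minus the WT response. Limma called 0 of the 39 genes (0.184% of all genes were, 0.0985% higher and 0.0854% lower), and 3 had an unadjusted p under 0.05: Angpt2 (0.99 ± 0.32, limma adjusted p = 0.354), Acta2 (-0.88 ± 0.27, 0.297) and Vegfb (-0.68 ± 0.30, 0.514). So the genes called in 1 genotype alone, 5 in WT (Sox17, Aplnr, Angpt2, Pdgfrb and Notch3) and 2 in KO (Cdh5 and Plvap), were not shown to respond differently. The 95% interval of the difference lay within 1 log2 unit of 0 for 23 genes, among them Kdr (-0.56 to 0.68), Acvrl1 (-0.73 to 0.76), Eng (-0.99 to 0.51), Erg (-0.13 to 0.91) and Vegfa (-0.65 to 0.30). For the other 16, among them Ptprb (-1.02 to 0.04) and Rgs5 (-0.47 to 1.39), a 2-fold difference between the responses lay inside the interval.

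Other vessel genes were taken from 6 lists of related pathways, and their counts stand against the shares over all genes given above (KO 23.7% higher and 23.2% lower, WT 18.7% and 20.6%). Of 16 capillary transport and metabolism genes, 11 fell and 1 rose in KO muscle and 12 fell and 1 rose in WT muscle. The lipoprotein lipase gene Lpl fell by 2.35 ± 0.24 in KO and 1.71 ± 0.24 in WT (limma adjusted p = 1.97e-05 and 2.48e-04), and the fatty acid receptor Cd36 by 1.29 ± 0.16 and 1.32 ± 0.16 (6.6e-05 and 7.57e-05), both of which are also made by muscle fibres. Of 16 arterial and Notch genes, 10 fell and 0 rose in KO, and 9 fell and 1 rose in WT, with Hey1, a Notch target, at -1.03 ± 0.19 and -1.08 ± 0.19 (limma adjusted p = 0.0011 and 0.00109). Of the 11 venous, lymphatic and inflammatory genes 2 were lower and 2 higher in each genotype, close to those shares. Prox1, the lymphatic homeobox factor that muscle fibres also express, rose by 1.46 ± 0.22 in KO and 1.03 ± 0.22 in WT (limma adjusted p = 2.83e-04 and 0.00338).

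Of 14 other mural genes, 7 fell and 2 rose in KO and 8 fell and 0 rose in WT, among them the pericyte genes Higd1b (-1.13 ± 0.21 and -1.74 ± 0.21) and Kcnj8, a potassium channel subunit (-1.53 ± 0.28 and -1.39 ± 0.28). Of 20 angiogenic regulators and oxygen-sensing genes, 8 fell and 4 rose in KO and 7 fell and 2 rose in WT. In either direction 12 and 9 were called, where 46.9% and 39.3% of all genes were. The lower counts stand against 23.2% and 20.6% of all genes, the higher counts against 23.7% and 18.7%. Egln1, the prolyl hydroxylase that marks HIF for degradation, fell by 1.91 ± 0.18 and 1.72 ± 0.18 (limma adjusted p = 1.35e-05 and 3.59e-05). Ppargc1a, a coactivator of mitochondrial genes and of Vegfa, fell by 1.43 ± 0.25 and 1.78 ± 0.25 (limma adjusted p = 9.12e-04 and 2.96e-04).

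Of the 13 measured BMP and TGF-beta genes of endothelium, 6 rose and 2 fell in KO and 7 rose and 2 fell in WT. Tmem100, an ALK1 target of endothelium, rose by 3.56 ± 0.47 in KO and by 3.03 ± 0.47 in WT (limma adjusted p = 1.29e-04 and 5.17e-04), and the receptor gene Tgfbr1 by 1.48 ± 0.15 and 1.40 ± 0.15. Between KO and WT denervated muscle, 2.19% of all genes were called, 0.959% higher and 1.23% lower. The 6 lists held 16 capillary, 16 arterial, 11 venous, 13 BMP and TGF-beta, 20 angiogenic and 14 other mural genes tested. From these lists 8 genes were called. Of these, 2 capillary genes (Rgcc at -2.65 ± 0.21, limma adjusted p = 3.13e-04, and Lpl at -1.10 ± 0.24, 0.0384) and 1 arterial gene (Cxcr4, a chemokine receptor, at -2.49 ± 0.47, 0.0208) were lower in the KO, and 1 mural gene (Sncg, a synuclein, at 2.13 ± 0.31, 0.00553) was higher. The Lpl call ended without KO denervated replicate 2 or 3 or KO control replicate 1 (adjusted p up to 0.145). It also ended without any 1 of the 3 WT denervated replicates or WT control replicate 2 (up to 0.127). With all arrays the Lpl call ended under quantile normalization (0.0706), the authors' processed values (0.0604) and normexp (0.23). No filter on dim probes (0.0911) and the 2 groups alone (0.0561) ended it too. The Cxcr4 call ended without replicate 2 or 3 of KO denervated or of WT denervated muscle (up to 0.0954). Normexp (0.735), slide as a fixed block (0.0633) and the 2 groups alone (0.0737) also ended the Cxcr4 call. The other 4 were BMP and TGF-beta genes lower in the KO (Smad6, Smad7, Id2 and Id3), with Id2, a BMP target of many cell types, at -2.23 ± 0.32 (limma adjusted p = 0.00524). The Smad7 call (-1.48 ± 0.32, 0.0381) ended without any 1 of 7 arrays: WT denervated replicates 1 (0.106) and 2 (0.0812), WT control replicate 3 (0.056), KO denervated replicates 2 (0.122) and 3 (0.121) and KO control replicates 2 (0.056) and 3 (0.0515). It also ended with normexp (0.235), with no filter on dim probes (0.0881) and with the 2 groups alone (0.126). Normexp ended the calls of Smad6 (0.457), Id3 (0.0975) and Sncg (0.231) as well. The 2 groups alone ended that of Smad6 too (0.0655). The Id2 and Rgcc calls between the genotypes held under all settings. Rgcc, a cell cycle regulator of the capillary list, was at 2.54, 2.21 and 1.96 on the KO denervated arrays against 4.23, 3.87 and 4.11 on the KO control arrays. It was at 4.77, 5.17 and 4.73 on the WT denervated arrays against 4.03, 3.95 and 4.54 on the WT control arrays. Rgcc fell by 1.83 ± 0.21 in KO and rose by 0.72 ± 0.21 in WT, and the difference of responses was called (-2.55 ± 0.30, limma adjusted p = 0.0104). That interaction call ended with a replicate block (adjusted p = 0.0544), with slide as a fixed block (0.0582) and with normexp (0.142). The WT rise of Rgcc ended without WT denervated replicate 2 (0.0775) or WT control replicate 1 (0.0647) or 2 (0.0738). It also ended with slide as a fixed block (0.139) and with normexp (0.221).

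Markers of other cells of whole muscle moved beside these genes, and their part in the results was not tested. In denervated muscle the 3 measured erythrocyte genes fell in both genotypes: Hba-a1 by 2.01 ± 0.40 in KO and 1.33 ± 0.40 in WT (limma adjusted p = 0.00178 and 0.0214). Its WT call ended without WT denervated replicate 1 or WT control replicate 2 or 3 (up to 0.0809), and the mean erythrocyte level, centred on each gene, ranged from -2.01 to -1.12 on KO denervated and 0.15 to 0.89 on KO control arrays, and from -0.35 to -0.02 on WT denervated and 0.80 to 1.58 on WT control arrays. Of 5 Schwann cell genes 4 fell in each genotype, with the centred mean between -1.22 and -0.89 on KO denervated, 0.40 and 1.97 on KO control, -1.64 and -1.11 on WT denervated and 0.98 and 1.58 on WT control arrays.

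Of 6 macrophage genes, 3 rose in KO and 1 in WT, the second near the 18.7% of all genes that were higher (centred means 0.21 to 0.62 on KO denervated, -0.97 to 0.14 on KO control, 0.13 to 0.31 on WT denervated and -0.46 to -0.24 on WT control arrays). Of 6 muscle fibre genes 4 fell in KO and 1 in WT (centred means -0.68 to -0.29 on KO denervated, 0.33 to 0.46 on KO control, -0.44 to 0.08 on WT denervated and -0.02 to 0.46 on WT control arrays). The WT count is near the 20.6% of all genes that were lower. Under quantile normalization 3 of the 4 KO calls ended (adjusted p = 0.843 for Acta1, 0.388 for Tnnt3 and 0.13 for Tnni2), and Tnni2 had the other sign (0.27, against -0.52 as reported). Of 7 fibroblast genes 0 fell in KO and 1 in WT (-0.02 to 0.24, -0.12 to 0.61, -0.36 to -0.20 and -0.08 to 0.04 on the KO denervated, KO control, WT denervated and WT control arrays). Only 1 of 5 platelet genes and 3 of 5 lymphocyte genes were measured above background, of which the platelet gene was called in neither genotype, and the lymphocyte genes gave 1 higher and 1 lower in KO and 1 lower in WT. The 3 measured adipocyte genes were called in neither.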

How the data were processed

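Muscle RNA was measured on 12 one-colour (Cy3) Agilent mouse arrays. Scanner output was deposited as spot intensity that the software had background-subtracted and detrended, with surrogate values for dim spots, per the file headers, which name Feature Extraction 10.7.3.1 (10.5.1.1 per the submitters' processing notes). Probe positions are on build mm8 per the file headers. The deposited table of processed values holds intensity that appears quantile-normalized between arrays, with no method stated. Its column medians lay between 23.9 and 24.2, and on the log2 scale it correlated with the scanner signal of the same array (across probes, r from 0.9988 to 0.9999), which gives its scale and direction. Its normalization stays unknown, and it served as an alternative.

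Of 43379 spots per array, for 41174 probes, control spots were left out, outlier spots were dropped, and repeated spots averaged. Each array's 75th percentile was subtracted from the log2 signals. Probes were named by RefSeq accession (24375), symbol (6301) or synonym (2426), and 8072 kept the file's name. Kept probes were well above background on every array of 1 group or more (22524 probes, 15226 genes, 226 with a missing value), and the brightest stood for its gene. All genes were fitted with limma 3.58.1 in R 4.3.3 (12 arrays, 4 group means, no covariate, residual df 8, two-sided), with Benjamini-Hochberg adjustment per comparison. Probes were fitted in the same way, and their p-values adjusted over the kept probes. An exact permutation test of 3 against 3 cannot give a p under 0.1, so none was used. Tables and figures were made with Python 3.11.15, pandas 2.3.3, numpy 2.4.6 and matplotlib 3.10.9, and the fit was tested on simulated data.

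Slide 1 held replicates 1 of KO denervated, WT denervated and WT control, slide 2 KO control 2 and WT control 2, slide 3 KO denervated 3, KO control 3 and WT control 3, and slide 4, scanned on the other day, KO denervated 2, KO control 1 and WT denervated 2 and 3. Replicate numbers come from the sample titles. Deviations from the group means of same-numbered WT arrays correlated (r = 0.304, 0.109 and 0.233, over genes). The 0.304 was of arrays on the same slide. KO and WT denervated arrays numbered 1 and 2, of different animals but on the same slide by number, correlated at 0.201 and 0.298. Whether the numbers pair WT arrays cannot be read from these values. The reported fit has no block, and the fit with a replicate block is given where it changed a call. Whether control and denervated muscle came from 1 animal is not stated. The members, gene lists and naming rule were chosen with earlier results of these data known. All members could be named, with every array's value for those among the 8 smallest adjusted p of a comparison or with disagreeing probes, and up to 4 genes per other list and comparison by smallest adjusted p. A few more array values (Cdh5, Emcn, Angpt2, Rgs5, Cnn1, Rgcc) were added after they were seen, and Acta1, Tnni2, Tnnt3 and Hba-a1 were named after their values were seen. Some entries of the promoter table and genome sequence of build mm8 were not used here.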

Additional observations from a re-analysis of the deposited data

How the results depend on the processing

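Each comparison was refitted under quantile normalization, the array median, normexp background correction, no filter, a filter on all 12 arrays, the authors' processed values, the mean of a gene's kept probes, slide as a fixed or random block, a replicate block, the 2 groups alone (not for the interaction) and without each array in turn. No called difference of the 39 genes changed sign. Members called lower by denervation numbered 26 in KO muscle (20 with normexp to 28 with the array median, 22 to 27 without 1 array) and 29 in WT muscle (20 with normexp to 29, 24 to 30 without 1 array). With slide as a fixed block they numbered 23 and 25, and with the replicate block 27 and 29. In KO 14 of the 26 calls, and in WT 15 of the 29, held under all settings. Between KO and WT denervated muscle 1 member, Acta2, was called with the array median, slide as a fixed block or slide as a random block, against 0 otherwise, and 0 to 0 without 1 array. In control muscle and for the interaction 0 were called under every setting, 0 to 0 without 1 array. The replicate block changed the calls of Emcn and Notch3 in WT and of Cspg4 in KO muscle and no other member's call. Deviations of same-numbered arrays correlated at 0.091, 0.015 and 0.175 in KO muscle, which cannot show whether these came from 1 animal. Normexp with an offset of 50 shrinks differences of dim probes by construction: over all genes it called 3605 in KO and 2583 in WT muscle, against 7145 and 5979. Without a filter on dim probes 34.5% of all calls in KO muscle were higher, against 50.5% with it. Calls of Aplnr, Vegfb and Notch3 in WT muscle ended most often (under 10, 8 and 8 of 23 alternatives), and those of the dim Acvrl1 and Angpt2 under normexp alone. Emcn, Cdh5 and Fli1 became called in WT muscle when a single array was left out, but also with all arrays. These settings were normexp and the slide and replicate blocks for Emcn, and the mean of kept probes for Cdh5 (adjusted p = 0.0294). For Fli1 they were slide as a fixed block (0.0191) and the 2 groups alone (0.0389). Those fits of Emcn and Cdh5 included WT denervated replicate 1, where Emcn (-6.52) and the second Cdh5 probe (-4.85) were not well above background.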
